A study of Mus musculus with 18 samples.

Results

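Long noncoding RNAs that stay in the nucleus, and genes whose introns carry small nucleolar RNAs (snoRNAs), were followed in hematopoietic stem cells (HSCs) of young and aged mice. The group holds 10 genes, chosen by symbol: Malat1, Neat1, Kcnq1ot1, Gas5, Snhg1, Snhg3, Snhg5, Snhg6, Snhg8 and Snhg12. All 10 have a row among the 24421 gene symbols of the count table, and all 10 passed the filter of a mean of at least 1 CPM (counts per 1000000 counts) that left 12808 genes for testing. Bone marrow of the reporter strain Hoxb5-tri-mCherry, which makes mCherry from the Hoxb5 locus, was the source of the cells. The young group was aged 2 to 3 months and the aged group 23 to 25 months. LT-HSCs were the mCherry-positive and ST-HSCs the mCherry-negative cells of the immunophenotypic HSC gate, and bulk-HSCs were the whole gate, so that bulk-HSCs include both other fractions. Each fraction at each age has 3 libraries, 18 in all, made from RNA depleted of ribosomal RNA without selection for poly(A) tails, so RNAs that lack a tail or are not exported are also sampled. The labels do not say whether replicates came from separate mice, so p-values measure the spread between these libraries, which may be technical.

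The libraries held 16495048 to 22973844 counts, and 3 counts correspond to 0.132 to 0.176 CPM. The summed level of 12 HSC marker genes was 3794 to 4796 CPM in young and 3944 to 4647 CPM in aged libraries. In the average of fractions 3 of the 12 were called higher with age, against 4.34% of all genes. These were Vwf by 1.10 (SE 0.12, adjusted p = 9.84e-06 in the edgeR quasi-likelihood test), Slamf1 by 0.68 and Procr by 0.40 on the log2 scale. Of the 12 markers, 6 were above 0 and 6 below, with a median of 0.01 against 0.04 for all genes. Megakaryocyte markers summed to 67.5 to 156 CPM in young and 104 to 170.0 CPM in aged libraries. Of the granulocyte markers, 7 of 8 had a median of 0 counts, and their sum, nearly all from Prtn3, was 46.0 to 130 CPM in young and 123 to 182 CPM in aged libraries. Erythroid markers summed to 34.3 to 204 CPM in young and 32.9 to 87.6 CPM in aged libraries, with Hba-a2 higher in aged (mean 0.0707 against 11.2 CPM, adjusted p = 0.00204) and Car1 lower in aged bulk-HSCs (adjusted p = 0.0262). B-cell markers reached at most 29.2 CPM, T-cell markers 16.5 CPM and macrophage markers 58.0 CPM. The precursor ribosomal RNA Rn45s took 12.8% to 15.5% of the counts in young and 14.3% to 17.4% in aged libraries. The part of these marker and ribosomal RNA shifts in the age differences was not tested. Leaving Rn45s out of the library sizes gave the same number of calls among the 10 genes in each comparison. TMM factors were computed again in that fit, so the scaling could hardly move and the fit does not test the ribosomal RNA shift. Libraries differed in completeness: among the 9653 genes whose median count reached 200, 1 to 180 had fewer than 10 counts in a young library and 2 to 8 in an aged library. The number of genes detected was 11548 to 13876 in young and 13526 to 14133 in aged libraries, and a fit that takes this number as a covariate is given beside Kcnq1ot1.

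Malat1 is an abundant RNA of nuclear speckles, the stores of splicing factors, and Neat1 is the scaffold on which paraspeckles assemble. Kcnq1ot1 is a long unspliced RNA that starts inside the Kcnq1 gene on the opposite strand. It is made from the paternal allele and silences neighbouring genes on that allele, among them Cdkn1c, a cell cycle inhibitor known for its part in HSC quiescence. Gas5 and the Snhg genes are snoRNA hosts: their introns are processed into snoRNAs of the box C/D or box H/ACA class. Many box C/D snoRNAs guide ribose methylation and many box H/ACA snoRNAs guide pseudouridylation of ribosomal RNA. The spliced exons of the hosts are in many cases removed by nonsense-mediated decay. Many hosts start transcription within a run of pyrimidines, the feature shared with ribosomal protein genes.

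Kcnq1ot1 lies at chr7:143203458-143296549 on the minus strand of mm10 and is annotated in GENCODE M21 as an antisense gene with 1 exon of 93092 bases. Its promoter is shown because it is the one gene of the group that passed the test with age. The 300 bases at chr7:143296498-143296797 (RefSeq, GRCm38.p6, minus strand, 250 bases before the start and 50 from it on) hold 9 CpG and 3 copies of CCAAT, the core of the site read by the factor NF-Y, which are in capitals.
Kcnq1ot1 promoter: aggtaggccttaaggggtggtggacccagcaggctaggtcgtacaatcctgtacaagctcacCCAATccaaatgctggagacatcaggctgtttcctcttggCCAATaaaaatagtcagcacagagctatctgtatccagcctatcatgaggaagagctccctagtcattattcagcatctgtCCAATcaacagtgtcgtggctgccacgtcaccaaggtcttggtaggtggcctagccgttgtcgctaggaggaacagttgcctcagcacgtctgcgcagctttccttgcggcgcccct
The copies begin 188, 148 and 67 bases before the start, all on the transcribed strand, with no ATTGG, the same motif on the other strand. Of 32851 promoters of this length in the table, 37.4% hold at least 1 copy on either strand and 3.4% hold at least 3. Such matches describe the letters and do not show that a factor is bound.

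The start sites are shown so that the pyrimidine runs of the snoRNA hosts can be compared, which differed in length and position. Promoters were found for 8 of the 10 genes, and the windows span 10 bases before to 25 bases from the annotated start, on the transcribed strand, with the longest run of C or T in capitals.
Snhg1, chr19:8723477-8723511, plus strand: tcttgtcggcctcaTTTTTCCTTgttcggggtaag
Snhg12, chr4:132308668-132308702, plus strand: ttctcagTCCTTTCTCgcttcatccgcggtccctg
Snhg5, chr9:88522873-88522907, minus strand: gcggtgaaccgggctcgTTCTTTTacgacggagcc
Snhg8, chr3:123508312-123508346, minus strand: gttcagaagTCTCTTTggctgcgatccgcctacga
Gas5, the downstream of its annotated starts, chr1:161035156-161035190, plus strand: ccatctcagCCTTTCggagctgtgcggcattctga
Snhg3, chr4:132353662-132353696, minus strand: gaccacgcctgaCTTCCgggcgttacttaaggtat
Malat1, chr19:5802648-5802682, minus strand: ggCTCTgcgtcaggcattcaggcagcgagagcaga
The run was 9 bases long in Snhg1 and Snhg12, a length that 8.3% of the 32851 windows reach. The run of Snhg1 begins at base 5 and that of Snhg5 at base 8, counted from 1 at the annotated start. The run was 7 bases in Snhg5 and Snhg8, which 20.5% reach, and 6 bases at the Gas5 start shown, which 32.1% reach. Snhg3 had 5 bases, the median of all windows, Malat1 and Kcnq1ot1 had 4, and the upstream start of Gas5 had 3, which 91.2% reach. Neat1 and Snhg6 have no entry.

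Malat1 was by far the most abundant of the 10 RNAs. It took 1.20% to 1.87% of all counts of a library, and the 10 genes together took 1.36% to 2.09%. Per kilobase of the longest annotated transcript, the median level over the 18 libraries was 2106 CPM for Malat1, 80.2 CPM for Gas5, 46.9 CPM for Snhg8, 36.8 CPM for Neat1 and 23.3 CPM for Snhg3. It was 18.9 CPM for Snhg12, 17.5 CPM for Snhg5, 14.4 CPM for Snhg6, 10.46 CPM for Snhg1 and 7.29 CPM for Kcnq1ot1. Kcnq1ot1 was thus the lowest per length and the third in counts, with a median of 14105 counts spread over its long span. The order among Neat1 and the hosts depends on the transcript chosen. Annotated transcripts of Neat1 run from 711 to 20771 bases, those of Snhg1 from 312 to 2728 bases and those of Gas5 from 346 to 2556 bases.

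Kcnq1ot1 was lower in aged than in young HSCs. In ST-HSCs its level was 862, 774 and 1047 CPM in the young libraries and 497, 469 and 540.4 CPM in the aged ones. The aged libraries lay below all young libraries, and below every young library of the other fractions as well. The log2 fold change was -0.83 (SE 0.15, 95% interval -1.15 to -0.51), a ratio of 0.561, with an adjusted p of 0.0109 (edgeR quasi-likelihood test, Benjamini-Hochberg over 12808 genes). It was the 1 gene of the 10 called in ST-HSCs, where 0.851% of all tested genes were called and 0.226% were called lower.

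In LT-HSCs the young libraries held 680.4, 982 and 1104 CPM of Kcnq1ot1 and the aged ones 635, 612 and 634 CPM. The groups did not overlap, although the lowest young library was close to the aged ones. The log2 fold change was -0.56 (SE 0.15) with an unadjusted p of 0.00178 and an adjusted p of 0.150, which did not pass. In bulk-HSCs the values were 861, 844 and 677 CPM in young and 644, 695 and 559 CPM in aged libraries. There the groups overlapped, with a log2 fold change of -0.33 (SE 0.15, adjusted p = 0.356 in the edgeR quasi-likelihood test).

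Averaged over the 3 fractions, Kcnq1ot1 fell by 0.57 on the log2 scale (SE 0.09, 95% interval -0.76 to -0.39), from a mean of 870.3 to 587 CPM, with an adjusted p of 0.000469 in the edgeR quasi-likelihood test. In this average 6.75% of all genes were called and 2.4% were called lower. The size of the age difference was not shown to differ between fractions: LT-HSCs against ST-HSCs differed by 0.28 (SE 0.21, 95% interval -0.17 to 0.73) and LT-HSCs against bulk-HSCs by -0.23 (SE 0.21), with unadjusted p of 0.212 and 0.298 (edgeR quasi-likelihood test), and neither passed after adjustment. The spread was wider in young than in aged libraries, with a coefficient of variation within groups of 17.3% against 6.70%.

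The call in ST-HSCs was close to the threshold. With young ST-HSC replicate 3, aged ST-HSC replicate 1 or aged ST-HSC replicate 2 left out, the adjusted p was 0.0569, 0.0522 and 0.0781, and with ST-HSC libraries alone it was 0.0636. In LT-HSCs the call appeared when young LT-HSC replicate 1 was left out (log2 fold change -0.73, adjusted p = 0.0300; it was -0.41 without young LT-HSC replicate 3) and with DESeq2 (-0.58, adjusted p = 0.00825), where the other alternatives gave adjusted p up to 0.641. With detected genes per library as a covariate, the age difference was -0.43 in the average (adjusted p = 0.133) and -0.71 in ST-HSCs (adjusted p = 0.0882), and no gene of the 10 was called. Each aged library, with at least 13526 detected genes, was above every young library except young LT-HSC replicate 2 with 13876. The covariate thus largely follows age, so this fit cannot separate age from library completeness. Among young libraries Kcnq1ot1 was at 1047 CPM with 11548 detected genes, 1104 with 11665, 677 with 12103, 861 with 12264 and 680.4 with 12492. It was at 844 CPM with 12607 detected genes, 862 with 13039, 774 with 13296 and 982 with 13876. The relation of these values within the young libraries was not tested.

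**Figure D1:**
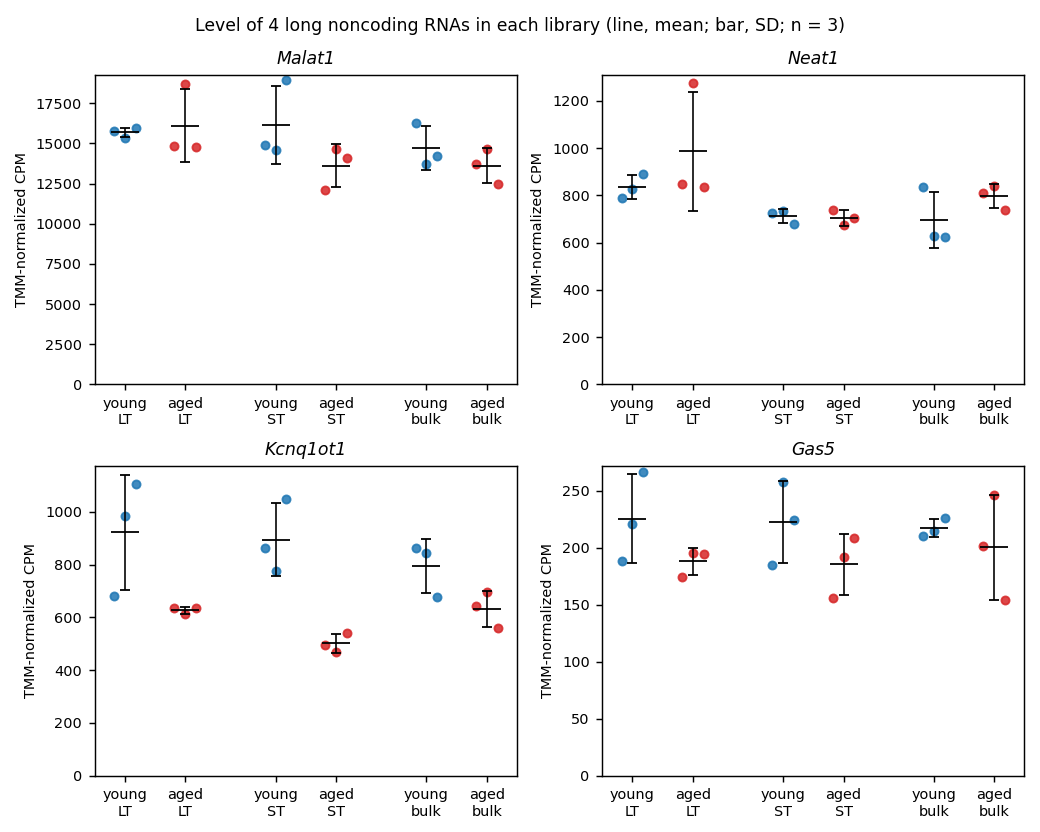
TMM-normalized CPM (vertical axis, from 0) of Malat1, Neat1, Kcnq1ot1 and Gas5 in each of the 18 libraries by group (horizontal axis); points are libraries, blue for young and red for aged, black lines the group mean and bars the SD (n = 3). Kcnq1ot1 lies at 469 to 695 CPM in aged and 677 to 1104 CPM in young libraries, and 1 aged LT-HSC library stands out for Neat1 at 1277 CPM.

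The calls around Kcnq1ot1 depended on the tool, and none of these genes passed the edgeR quasi-likelihood test with age. Of 13 neighbours in the imprinted domain, 10 passed the filter, and in the average of fractions 0 were called by edgeR, 1 by DESeq2 (Trpm5) and 2 by limma-voom (Trpm5 and Tspan32), with 2 at an unadjusted p under 0.05. Over all 12808 genes edgeR called 864, DESeq2 1494 and limma-voom 1067 in this average, and 19.7% had an unadjusted p under 0.05. Of the 10, 5 were higher and 5 lower in the average, with a median of 0.03 against 0.04 for all genes. Cdkn1c was measured at 63.8, 57.1 and 39.4 CPM in young and 40.5, 39.0 and 41.5 CPM in aged LT-HSCs. In ST-HSCs it was at 25.8, 37.2 and 24.5 CPM in young and 31.6, 29.6 and 32.5 CPM in aged libraries, and in bulk-HSCs at 86.4, 58.6 and 75.2 CPM against 60.6, 59.1 and 61.8 CPM. The ages overlapped in each fraction, although aged values sat in a narrow band, and the mean log2 fold change of Cdkn1c was -0.20 (SE 0.12, adjusted p = 0.429 in the edgeR quasi-likelihood test).

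Kcnq1 itself, the potassium channel gene in whose span Kcnq1ot1 lies, was listed at 0 counts in all 18 libraries, as was Th. At these depths a count of 0 allows up to 0.132 to 0.176 CPM, for counting error only. Whether strand was used in the counting is not given in the sources used here, and without it reads of unspliced Kcnq1 could not be told from reads of Kcnq1ot1. Trpm5, a cation channel gene whose start lies at -201.9 kb from that of Kcnq1ot1, had 508 counts in the 9 young and 40 in the 9 aged libraries. It had 0 counts in 2 young and 5 aged libraries. Its level was 0 to 6.95 CPM in young and 0 to 1.10 CPM in aged libraries, the ages overlapped, and the adjusted p was 0.0609 with edgeR, 0.00682 with DESeq2 and 0.0213 with limma-voom. No fold is given for Trpm5, since all aged bulk-HSC libraries were at 0. Tspan32 gave 1.09 (SE 0.42, adjusted p = 0.143) and Cd81 gave -0.14 (SE 0.10, adjusted p = 0.536) as mean log2 fold changes in the edgeR quasi-likelihood test, both short of the threshold. With limma-voom the adjusted p of Tspan32 was 0.0380.

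**Figure D2:**
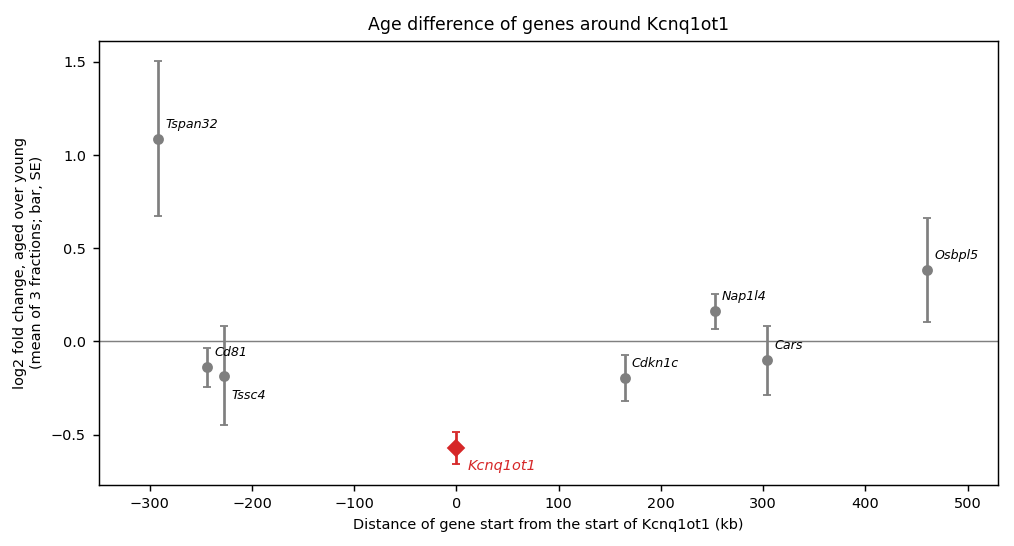
Log2 fold change of aged over young, averaged over the 3 fractions (vertical axis; bars are the SE of the edgeR fit), against the distance of each gene's start from the start of Kcnq1ot1 in kb (horizontal axis), for the tested neighbours with counts in every library (Trpm5, Slc22a18 and Phlda2 are left out). Kcnq1ot1 (red) is at -0.57, and the nearest gene shown, Cdkn1c at 164.5 kb, is at -0.20.

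Malat1 levels changed little. In LT-HSCs they were 15748, 15352 and 15943 CPM in young and 14829, 18722 and 14746 CPM in aged libraries. In ST-HSCs they were 14923, 14563 and 18939 CPM in young and 12078, 14673 and 14095 CPM in aged libraries, and in bulk-HSCs 16260, 13701 and 14196 CPM against 13719, 14618 and 12455 CPM. The ages overlapped in every fraction, with aged LT-HSC replicate 2 and young ST-HSC replicate 3 as the high libraries. The mean log2 fold change was -0.11 (SE 0.06, 95% interval -0.24 to 0.02, adjusted p = 0.367), and the lowest of the 3 fractions was ST-HSCs with -0.25 (SE 0.11, unadjusted p = 0.0322, adjusted p = 0.431 in the edgeR quasi-likelihood test).

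Neat1 did not pass the test with age either. Its level was 787, 828 and 891 CPM in young and 849, 1277 and 834 CPM in aged LT-HSCs. In ST-HSCs it was 726, 735 and 678 CPM in young and 739, 673 and 703 CPM in aged libraries, and in bulk-HSCs 835, 629 and 626 CPM against 810.0, 839 and 740.2 CPM. The ages overlapped in each fraction, and aged LT-HSC replicate 2, which was also high for Malat1, stood apart. The mean log2 fold change was 0.14 (SE 0.08, 95% interval -0.03 to 0.31) with an adjusted p of 0.382 in the edgeR quasi-likelihood test. Without aged LT-HSC replicate 2 it was 0.06, and the LT-HSC value went from 0.24 to 0.01.

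Between fractions Neat1 had the smallest p of the 10 genes. LT-HSCs were above ST-HSCs without overlap at both ages, where 12.1% of all genes in young and 15% in aged mice did not overlap in either direction. The log2 difference was 0.23 (SE 0.14) in young and 0.48 (SE 0.14) in aged mice. In the mean of both ages the difference was 0.36 (SE 0.10, 95% interval 0.15 to 0.56), a ratio of 1.28, with an unadjusted p of 0.00214 and an adjusted p of 0.131 in the edgeR quasi-likelihood test. It was called with DESeq2 (adjusted p = 0.0100) and not in the other alternatives, where the adjusted p reached 0.287. Without aged LT-HSC replicate 2, the high library for Neat1, the difference in the mean of both ages was 0.24. In the mean of both ages 0 of the 10 genes were called by edgeR and 0 by limma-voom, with 1 at an unadjusted p under 0.05, against 0.812% of all genes called and 9.61% at an unadjusted p under 0.05.

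Gas5, named for its rise in growth-arrested cells, was the most abundant host. In LT-HSCs it was measured at 189, 221 and 266 CPM in young and 174, 196 and 194 CPM in aged libraries. In ST-HSCs the values were 185, 258 and 225 CPM in young and 156, 192 and 209 CPM in aged libraries, and in bulk-HSCs 211, 215 and 226 CPM against 201, 246 and 154 CPM. Group means were lower in aged mice in each fraction, but the libraries overlapped. The mean log2 fold change was -0.21 (SE 0.10, 95% interval -0.42 to -0.01), with an unadjusted p of 0.0433 and an adjusted p of 0.234 in the edgeR quasi-likelihood test.

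The 6 Snhg genes had medians of 11.8 to 36.4 CPM over the libraries, and none passed the test with age in any fraction. Snhg1 was at 30.7, 26.2 and 23.5 CPM in young and 24.98, 27.0 and 27.7 CPM in aged LT-HSCs. In ST-HSCs it was at 21.7, 29.0 and 34.8 CPM in young and 34.6, 31.0 and 24.7 CPM in aged libraries, and in bulk-HSCs at 37.5, 28.1 and 24.6 CPM against 36.8, 36.0 and 30.6 CPM. The ages overlapped throughout, and the mean log2 fold change was 0.09 (SE 0.14, 95% interval -0.21 to 0.39, adjusted p = 0.831 in the edgeR quasi-likelihood test).

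Single low libraries marked several of the other hosts. Snhg3, which carries the H/ACA snoRNAs Snora73a and Snora73b, had 0 counts in young LT-HSC replicate 3 and 128 to 366 counts in the other libraries. Snhg6 had 7 counts, 0.327 CPM, in young bulk-HSC replicate 3 against 124 to 385 counts elsewhere. Snhg12 was at 9.42 CPM in young ST-HSC replicate 3 against 21.5 to 44.4 CPM elsewhere, and Snhg5 at 8.44 CPM in young LT-HSC replicate 1 against 14.2 to 37.8 CPM. These low values all fell in young libraries, in which 47 to 180 well-expressed genes had fewer than 10 counts, against at most 8 in aged libraries. The part of this incompleteness in the host values was not tested.

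The coefficient of variation within groups was higher in young than in aged libraries for each of the 6 Snhg genes. The share of all genes with this direction was not computed, and young libraries were less complete, so it is not a trait shown for these hosts. It was 46.0% against 17.5% for Snhg3, 51.3% against 35.5% for Snhg6 and 34.0% against 9.01% for Snhg12. For Snhg1, Snhg5 and Snhg8 it was 19.6% against 10.6%, 32.8% against 19.6% and 40.1% against 24.8%. Without the lowest young library of the gene, the young value was 24.2% for Snhg3, 19.9% for Snhg5, 33.4% for Snhg6, below its aged value, and 19.2% for Snhg12. No aged library was left out in turn, so these values are not a like comparison with the aged ones. Malat1, Neat1 and Gas5 went the other way, with 8.73%, 9.25% and 12.4% in young against 10.7%, 12.2% and 14.6% in aged libraries.

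The mean log2 fold changes with age of Snhg3, Snhg5, Snhg6, Snhg8 and Snhg12 ran from -0.27 (Snhg6, SE 0.46) to 0.08 (Snhg8, SE 0.22), with adjusted p of 0.786 to 0.984 in the edgeR quasi-likelihood test. The intervals were wide: they reached from -1.18 to 1.06 for Snhg3 and from -0.58 to 0.28 for Snhg12, and included 0. Without the libraries in which Snhg3 and Snhg6 had under 10 counts, the mean log2 fold change was -0.24 for Snhg3 (adjusted p = 0.665) and -0.34 for Snhg6 (adjusted p = 0.575).

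In bulk-HSCs 2 hosts were lower in aged mice without overlap of the libraries. Snhg12 was at 44.4, 44.0 and 32.6 CPM in young and 25.5, 29.8 and 26.7 CPM in aged bulk-HSCs, a log2 fold change of -0.56 (SE 0.36, adjusted p = 0.585 in the edgeR quasi-likelihood test). Snhg3 was at 16.2, 14.3 and 17.1 CPM in young and 13.9, 11.1 and 10.9 CPM in aged bulk-HSCs, with -0.41 (SE 0.92, adjusted p = 0.946). Among all tested genes 22.7% did not overlap in this comparison, and 9.29% were lower without overlap. In ST-HSCs Snhg12 went from 34.6, 30.0 and 9.42 CPM in young to 28.2, 26.7 and 36.0 CPM in aged libraries, and the groups overlapped.

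**Figure D3:**
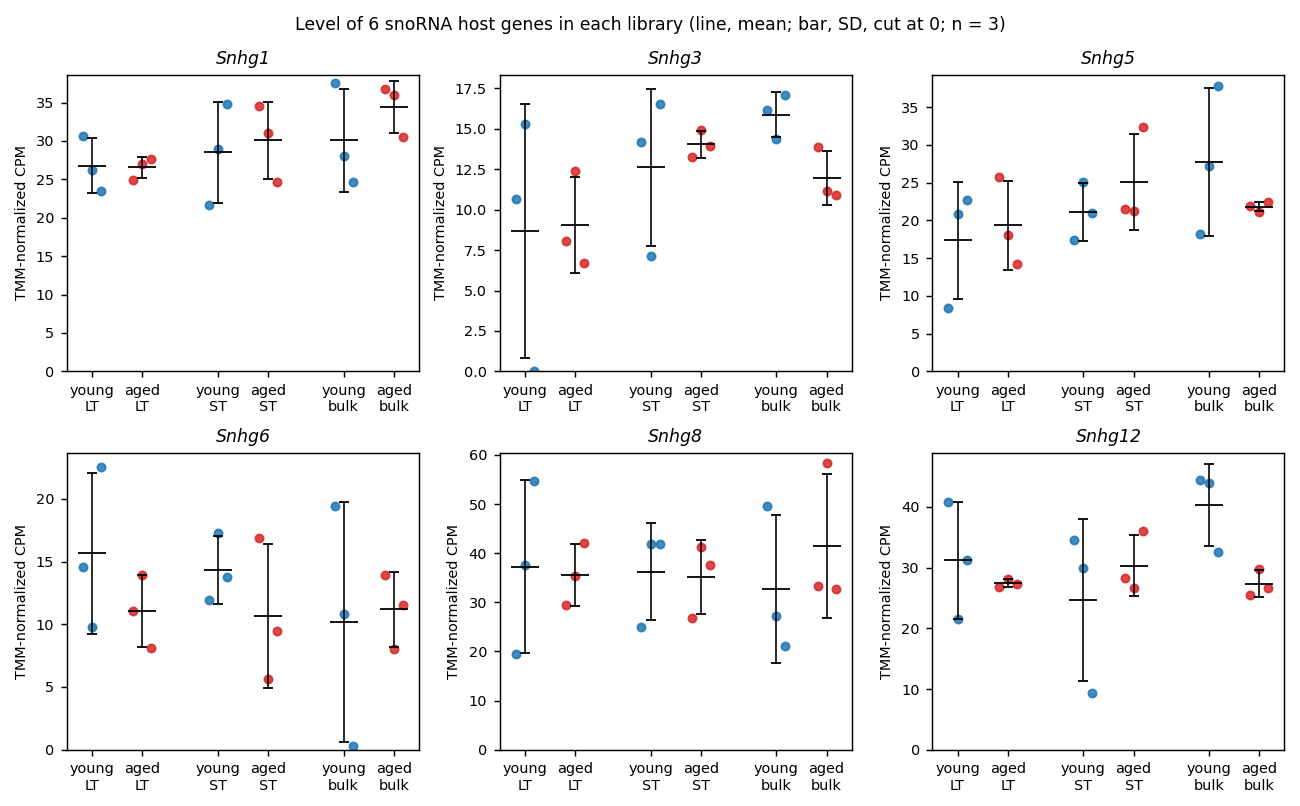
TMM-normalized CPM (vertical axis, from 0) of the 6 Snhg genes in each library by group (horizontal axis); points are libraries, blue for young and red for aged, black lines the mean and bars the SD, cut at 0 (n = 3). Single young libraries lie far below the rest for Snhg3 (0 CPM), Snhg6 (0.327 CPM) and Snhg12 (9.42 CPM).

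Counted over the group, 6 of the 10 genes had a log2 fold change below 0 in each of the 3 fractions, though not the same 6: Kcnq1ot1 and Gas5 were below 0 in all 3. By comparison, the share of all genes below 0 was 46.3%, 47.5% and 47.0% for LT-, ST- and bulk-HSCs. The median log2 fold change of the 10 was -0.04 for LT-HSCs, -0.03 for ST-HSCs and -0.12 for bulk-HSCs, beside 0.04, 0.02 and 0.03 for all genes. In LT-HSCs edgeR called 0 of the 10, limma-voom 0 and DESeq2 1, with 1 at an unadjusted p under 0.05, where edgeR called 0.445% of all genes and 8.81% had an unadjusted p under 0.05. Kcnq1ot1 was the 1 gene of the 10 without overlap of the ages in LT-HSCs, where 16.1% of all genes did not overlap and 5.89% were lower without overlap. The same held in ST-HSCs, where these shares were 17.8% and 7.51%. In bulk-HSCs all 3 tools called 0 of the 10, with 1 at an unadjusted p under 0.05, against 1.98% of all genes called by edgeR and 13.3% at an unadjusted p under 0.05. For the difference of the age effect between fractions, 0 of the 10 were called by edgeR, DESeq2 or limma-voom and 0 had an unadjusted p under 0.05, where edgeR called 0% of all genes for LT-HSCs against ST-HSCs and 0.00781% for LT-HSCs against bulk-HSCs. These are bulk libraries, in which fewer cells of a type and less RNA per cell cannot be told apart.

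**Figure D4:**
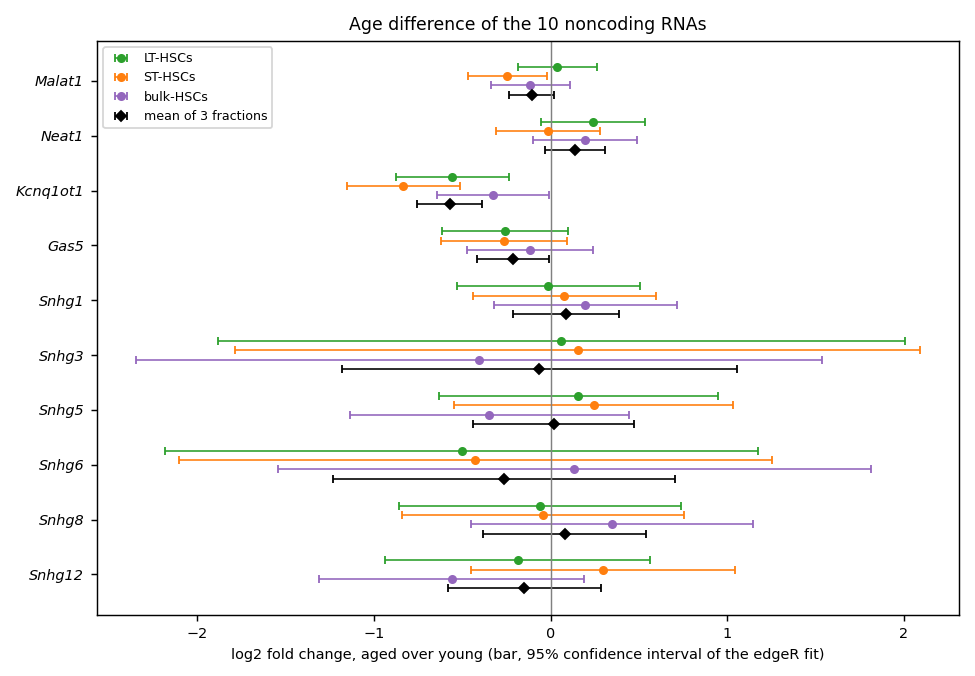
Log2 fold change of aged over young (horizontal axis) for each of the 10 genes (vertical axis) in LT-HSCs, ST-HSCs, bulk-HSCs and their mean; bars are 95% confidence intervals of the edgeR fit. The intervals are not adjusted for the number of genes tested. Those of Kcnq1ot1 lie below 0 in all 3 fractions, but after adjustment edgeR called it in ST-HSCs and the mean and not in LT-HSCs or bulk-HSCs. The intervals of Snhg3 and Snhg6 are the widest.

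Between fractions within 1 age, 0 of the 10 genes were called by edgeR, DESeq2 or limma-voom in any of the 6 comparisons. In young mice 0 reached an unadjusted p under 0.05 in each of the 3 comparisons, where edgeR called 0.429% of all genes for LT-HSCs over ST-HSCs, 0.273% for LT-HSCs over bulk-HSCs and 0.164% for ST-HSCs over bulk-HSCs, and 10.4%, 11.5% and 9.63% had an unadjusted p under 0.05. In aged mice 3 genes did for LT-HSCs over ST-HSCs (Neat1, Malat1 and Kcnq1ot1), 2 for LT-HSCs over bulk-HSCs and 1 for ST-HSCs over bulk-HSCs, where edgeR called 0.00781%, 0% and 0% of all genes and 3.41%, 3.29% and 2.7% had an unadjusted p under 0.05. Neat1 was the 1 gene without overlap for young LT-HSCs over ST-HSCs, against 12.1% of all genes, and the other young comparisons had 0, against 12.2% for LT-HSCs over bulk-HSCs and 10.9% for ST-HSCs over bulk-HSCs. In aged LT-HSCs over ST-HSCs 4 of the 10 did not overlap, against 15% of all genes: Malat1, Neat1 and Kcnq1ot1 were higher and Snhg3 lower in LT-HSCs. The log2 differences there were 0.48 for Neat1 (SE 0.14, adjusted p = 0.661), 0.32 for Kcnq1ot1 (SE 0.15, adjusted p = 1) and 0.24 for Malat1 (SE 0.11, adjusted p = 1) in the edgeR quasi-likelihood test. Aged LT-HSC replicate 2 held the highest Malat1 and Neat1 values of the aged groups, and without it the Neat1 difference was 0.25. Aged LT-HSCs and bulk-HSCs did not overlap for 2 genes, against 15.1% of all genes: Malat1 was higher (0.24) and Snhg1 lower (-0.38, SE 0.25) in LT-HSCs. Aged ST-HSCs and bulk-HSCs did not overlap for 2 genes, against 14.5%: Neat1 (-0.18, SE 0.14) and Kcnq1ot1 (-0.33, SE 0.15) were lower in ST-HSCs.

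The snoRNAs inside the 7 hosts were barely sampled. RefSeq places 26 snoRNAs within them, 8 each in Gas5 and Snhg1, 4 in Snhg12, 2 each in Snhg3 and Snhg5 and 1 each in Snhg6 and Snhg8, all in an intron of an annotated transcript. The count table has a row for 8 of them and 5 passed the filter. An example of each class is shown from GENCODE M21, with box C (TGATGA) and box D (CTGA) of the C/D class and the ACA near the end of the H/ACA class in capitals.
Snord47, box C/D, in Gas5: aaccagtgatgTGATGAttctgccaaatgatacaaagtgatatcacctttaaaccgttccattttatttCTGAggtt
Snora61, box H/ACA, in Snhg12: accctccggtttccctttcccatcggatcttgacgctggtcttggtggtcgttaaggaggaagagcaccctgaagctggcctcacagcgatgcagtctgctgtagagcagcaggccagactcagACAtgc
Snord47 had 6 to 67 counts per library and a mean of 1.48 CPM beside 207 CPM for its host, and Snora61 had 0 to 125 counts and 1.93 CPM beside 30.2 CPM. Snord22 in Snhg1 had a mean of 2.66 CPM, Snora16a and Snora44 in Snhg12 had 2.63 and 1.95 CPM. In the mean of the fractions 0 of the 5 were called with age by edgeR, DESeq2 or limma-voom, and 0 had an unadjusted p under 0.05. The log2 fold changes ran from -0.69 (Snora16a, SE 0.67) to 0.61 (Snord47, SE 0.80), with adjusted p of 0.662 to 0.934 in the edgeR quasi-likelihood test. How reads shared by a snoRNA and its host were divided is not given in the sources used here.

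Other RNAs of these pathways were described from lists, in the mean of the 3 fractions and with the edgeR quasi-likelihood test. All values are RNA levels, also where a list is named for proteins. In this average edgeR called 4.34% of all genes higher and 2.4% lower, and 19.7% had an unadjusted p under 0.05. Of 7 other noncoding snoRNA hosts, 0 were called by edgeR, DESeq2 or limma-voom and 0 had an unadjusted p under 0.05, with a median of 0.26 against 0.04 for all genes. Of 38 protein-coding snoRNA hosts, 3 fell and 0 rose: Hspa8, a constitutive chaperone, fell by 0.44 (SE 0.08, adjusted p = 0.00264), Nop56 fell by 0.42 (SE 0.08, adjusted p = 0.00472) and Eif4a2, a translation initiation helicase, fell by 0.19 (SE 0.06, adjusted p = 0.0465). Nop56 is also a core protein of box C/D particles, and of 18 snoRNP core and assembly proteins it fell together with Nop10 of the H/ACA particle (-0.55, SE 0.14, adjusted p = 0.0217), with 13 of the 18 below 0. Nop56 was at 168, 162 and 191 CPM in young and 101, 121 and 123 CPM in aged ST-HSCs. In bulk-HSCs it was at 169, 192 and 171 CPM against 111, 128 and 133 CPM. The ages did not overlap in these fractions, against 17.8% and 22.7% of all genes. In LT-HSCs they overlapped, at 110, 163 and 120 CPM in young and 117, 110 and 126 CPM in aged libraries.

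Of 13 other nuclear long noncoding RNAs, Meg3 fell, by 1.18 on the log2 scale (SE 0.32, adjusted p = 0.0316), and 10 of 13 were below 0. Meg3 and Rian are maternally expressed RNAs of the imprinted Dlk1-Dio3 domain. Meg3 was at 84.1, 63.7 and 122 CPM in young and 31.6, 36.9 and 27.3 CPM in aged LT-HSCs, and at 65.0, 129 and 43.7 CPM against 38.4, 19.1 and 16.1 CPM in bulk-HSCs. It did not overlap in these fractions, against 16.1% and 22.7% of all genes. In ST-HSCs it overlapped, at 29.5, 15.5 and 82.9 CPM in young and 21.8, 58.4 and 19.8 CPM in aged libraries. Rian gave -0.83 (SE 0.26, adjusted p = 0.0604). DESeq2 called 5 of the 13 in the same average, Rian among them, and limma-voom 1. Of 5 structured nuclear RNAs 0 were called by edgeR, DESeq2 or limma-voom, with 1 at an unadjusted p under 0.05.

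RNAs that encode proteins working with Neat1 and Malat1 were called in both directions, and protein was not measured. Of 24 paraspeckle proteins 3 rose and 0 fell: the cold-inducible RNA-binding proteins Rbm3 (0.49, SE 0.08, adjusted p = 0.00120) and Cirbp (0.70, SE 0.13, adjusted p = 0.00265), and Zc3h6 (0.47, SE 0.13, adjusted p = 0.0379). Rbm3 was at 131, 165 and 200 CPM in young and 248, 216 and 261 CPM in aged ST-HSCs, without overlap, against 17.8% of all genes. The list's median was -0.06, since 14 of the 24 were below 0. Of 24 nuclear speckle and splicing factors 3 fell and 0 rose, with 19 of 24 below 0, beside 45.3% of all genes, and a median of -0.14: the speckle scaffold Srrm2 (-0.24, SE 0.05, adjusted p = 0.0108), Srsf6 (-0.25, SE 0.06, adjusted p = 0.0196) and Srsf11 (-0.51, SE 0.13, adjusted p = 0.0265). DESeq2 called 7 of the 24 and limma-voom 3.

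Of 19 nonsense-mediated decay factors, which act on the spliced host RNAs, 1 fell (Nbas, -0.34, SE 0.10, adjusted p = 0.0432). Of 79 cytosolic ribosomal protein genes 1 rose (Rplp2, 0.20, SE 0.06, adjusted p = 0.0483) and 1 fell (Rps3a1, -0.25, SE 0.07, adjusted p = 0.0325), with a median of 0.03. Of the 14 list genes called in this average by edgeR, 6 were called whichever library was left out (Hspa8, Nop56, Rbm3, Cirbp, Srrm2 and Srsf6) and 1, Rbm3, with detected genes per library as a covariate (adjusted p = 0.0429). Meg3 lost its call in 10 of the 18 fits without 1 library (adjusted p up to 0.0719), with the covariate (log2 fold change -0.36, adjusted p = 0.861) and with a replicate block (adjusted p = 0.0509).

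The genes whose level followed a member most closely over the 18 libraries are given as a description, since libraries share their group, depth and dropouts. For Kcnq1ot1 these were Plxdc2 (Pearson r = 0.84 of log2 CPM), Cers6 (0.82) and Pik3cd (0.81). For Neat1 they were Dst (0.84), Eya2 (0.77) and Kbtbd11 (0.74), and for Malat1 1700094D03Rik (0.78), Sprtn (0.75) and Map4k2 (0.72). Gas5 was closest to Gins3 (0.81), Snhg1 to Dnajb3 (0.75), Snhg5 to Slc7a5 (0.84), Snhg8 to Tiprl (0.84) and Snhg12 to Alg1 (0.91). The values near 1 for Snhg3 (Cdk2ap2, 0.97) and Snhg6 (E430018J23Rik, 0.96) rested on single libraries, and were 0.34 and 0.63 without young LT-HSC replicate 3 and young bulk-HSC replicate 3. Among the members themselves the highest was Kcnq1ot1 with Gas5 (0.63).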

How the data were processed

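RNA of 3 HSC fractions at 2 ages was sequenced by the authors (read pairs, KAPA RNA HyperPrep with RiboErase). Per the paper's methods and the submitters' processing notes, reads were aligned to mm10 with HISAT2 and quantified with StringTie 1.3.4d, with SAMtools 1.7 also named. The deposited values are counts per gene symbol, whole numbers without normalization. All 18 columns were used and 0 were left out, and libraries were grouped by the sample titles.

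The tests used R 4.3.3 with edgeR 4.0.16, with limma 3.58.1 and DESeq2 1.42.0 as alternatives, and figures were drawn in Python 3.11.15 with matplotlib 3.10.9. TMM factors were used, genes with a mean of at least 1 CPM were kept, and 1 quasi-likelihood model of 6 group means (12 residual degrees of freedom) was fitted to all 12808 genes. A gene was called at a Benjamini-Hochberg adjusted p under 0.05. A standard error is the size of a log2 fold change over the square root of its F. The fit was tested on simulated data. CPM values in the text are TMM-normalized.

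Members and lists were chosen with earlier results of these data known. Named genes are the 10 members, at most the 3 smallest p of each list in the age average, marker genes, and the 3 closest correlates of each member. Alternatives were other scalings, filters, tools, a replicate block, a covariate, only the groups compared, and each library left out. Leaving out 2 libraries together, and the lowest young library for the spread of 4 hosts, was chosen after seeing the data. Positions came from GENCODE M21 and sequences from it and RefSeq (GRCm38.p6). Limits from counts cover counting error only. The confidence intervals are those of the edgeR fit and, like the p-values, rest on the spread between these libraries.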

Additional observations from a re-analysis of the deposited data

How the results depend on the processing

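Of 13 counts of called members, 9 were the same under every alternative. In ST-HSCs the count fell from 1 to 0 with only the groups compared and with detected genes per library as a covariate, and ran from 0 to 1 with single libraries left out. In the average of fractions it was 0 with that covariate. In LT-HSCs it was 1 with DESeq2 and 0 to 1 with single libraries left out, and for LT-HSCs over ST-HSCs in the mean of both ages it was 1 with DESeq2. Genes at the filter of at least 10 counts in every library do not include Snhg3 and Snhg6, and the average of fractions has no fit on fewer groups. The cause of these shifts was not tested, and the covariate largely follows age.

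Directions of small differences turned. With the covariate, Malat1 was 0.0407 in bulk-HSCs and 0.0205 in the average, and Gas5 0.00692 in bulk-HSCs. With limma-voom, Snhg3 was 0.25 and Snhg6 0.16 in the average, and by library size alone Snhg5 was -0.0158. With single libraries left out, Malat1 in LT-HSCs ran from -0.0846 to 0.0974, Neat1 in ST-HSCs from -0.0513 to 0.0160 and Gas5 in bulk-HSCs from -0.290 to 0.0423. In the average Snhg3 ran from -0.259 to 0.17, Snhg5 from -0.0924 to 0.114, Snhg6 from -0.455 to 0.0206 and Snhg8 from -0.0302 to 0.223. Calls over all genes in the average went from 864 to 153 with the covariate and to 1494 with DESeq2, in LT-HSCs from 57 to 290 and in bulk-HSCs from 253 to 741 with DESeq2, and in ST-HSCs from 109 to 448 with DESeq2 and to 54 with the covariate.

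Whether equal replicate numbers mark paired libraries was not settled. Correlations of deviations between same-numbered libraries were -0.03 to 0.16, and in 0 of 9 pairs of groups were all above 0.1. For young LT-HSCs with young ST-HSCs they were 0.01, 0.16 and 0.13. Replicate 3 of these groups had 179 and 180 well-expressed genes with fewer than 10 counts. With 3 libraries per group these values cannot show whether libraries were paired, and the average of fractions treats them as unpaired. The fit with a replicate block called 1 member in ST-HSCs and 1 in the average, Kcnq1ot1 in each (log2 fold changes -0.83 and -0.57, adjusted p = 0.0195 and 0.00110 in the edgeR quasi-likelihood test), and 0 in the other 11 comparisons, and 855 genes in the average.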
